A study of Mus musculus with 19 samples.

Results

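The GABA-A receptor subunit genes Gabra2, Gabra3, Gabra5, Gabrb1, Gabrb2, Gabrg1 and Gabrq were followed across all libraries. They were chosen by gene symbol, and all 7 were among the 14443 genes counted, each with at least 165 counts in every library. The tissue was mouse locus coeruleus (LC), the main source of noradrenaline in the brain and a site active in waking, and poly(A) RNA was sequenced without strand information. The 19 libraries, described in the labels as biological replicates, fell into 4 groups by genotype and sleep. CnB1KO_SD6 (n = 5) was made from ABC-CnB1KO mice kept awake for 6 h, and CnB1KO_S6 (n = 5) from ABC-CnB1KO mice that slept. WT_SD6 (n = 5) was made from ABC-Ctrl mice, labelled WT, kept awake for 6 h, and WT_S6 (n = 4) from ABC-Ctrl mice that slept. CnB1, encoded by Ppp3r1, is the regulatory subunit of calcineurin, a phosphatase switched on by calcium. Tissue was taken 4 weeks after injection of AAV-hSyn-Cre, a virus that carries Cre recombinase under the human synapsin promoter, which is active in neurons, so glia and vessels in the same tissue are not expected targets. The injection is stated for the mice without a distinction by genotype. Neither the animals' strain, age and sex nor the meaning of ABC is given in the sources used here, so that a difference of strain and the CnB1 knockout cannot be told apart in these groups. Libraries are numbered by their column in the count table (1 to 20, without 5).

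GABA-A receptors are chloride channels opened by GABA, the main inhibitory transmitter of the brain. Each receptor is a ring of subunits, usually alpha and beta subunits together with a gamma, delta, epsilon or theta subunit, and the alpha subunit does much to set where the receptor sits and how it answers benzodiazepines. Neurons of the LC fall silent in sleep and receive strong GABA input, and epsilon and theta subunits, rare in most of the brain, are known from monoaminergic nuclei such as this one. Receptors with the alpha-2 subunit, the product of Gabra2, are found at synapses and on the first stretch of the axon, and they are known for the calming action of benzodiazepines. The level of Gabra2 RNA in brain is also known to differ between inbred mouse strains.

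The members lie in known subunit clusters, here placed on GRCm38. Gabra2 lies on chromosome 5 from 70957597 to 71095849 on the minus strand, with 7640 bases of exon in 12 blocks that overlap no other annotated exon. Gabrg1 (chromosome 5, 70751047 to 70842617, minus strand) lies on one side of it. Gabra4 (chromosome 5, 71569749 to 71658308, minus strand) and then Gabrb1 (chromosome 5, 71658113 to 72149037, plus strand) lie on the other. Gabra3 (72432681 to 72656848, minus strand) and Gabrq (72825178 to 72842602, plus strand) lie on the X chromosome next to Gabre, the epsilon subunit. Gabra5 lies on chromosome 7 from 57407672 to 57510059 on the minus strand. Gabrb2 lies on chromosome 11 from 42419757 to 42629028 on the plus strand, in a cluster with Gabra6. Exon overlap was small: Gabra5 shared 148 bases (5.0% of its exon bases) with Gm9962 on the other strand and Gabrb1 46 bases with Gabra4, and reads from such bases cannot be assigned without strand.

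The sequences around the starts of Gabra2, of its neighbour Gabrg1 and of Gabrq show how unlike the starts of these genes are. Each is the RefSeq window on GRCm38.p6 from 250 bases before to 50 bases after the start, printed 5′ to 3′ on the gene's own strand with CG dinucleotides in capitals. The windows lie at chr5:71095800-71096099 (minus strand), chr5:70842568-70842867 (minus strand) and chrX:72824928-72825227 (plus strand).
Gabra2: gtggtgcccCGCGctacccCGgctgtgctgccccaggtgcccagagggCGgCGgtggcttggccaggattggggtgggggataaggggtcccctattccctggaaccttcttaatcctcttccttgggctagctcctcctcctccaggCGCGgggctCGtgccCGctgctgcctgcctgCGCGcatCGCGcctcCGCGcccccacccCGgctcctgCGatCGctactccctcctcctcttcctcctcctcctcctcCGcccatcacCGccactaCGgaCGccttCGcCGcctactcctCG
Gabrg1: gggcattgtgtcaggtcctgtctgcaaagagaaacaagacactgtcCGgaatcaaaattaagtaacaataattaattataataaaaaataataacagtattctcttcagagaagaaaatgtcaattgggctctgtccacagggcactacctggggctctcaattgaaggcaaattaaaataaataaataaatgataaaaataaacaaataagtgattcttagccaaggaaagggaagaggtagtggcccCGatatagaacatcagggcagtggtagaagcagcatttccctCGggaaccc
Gabrq: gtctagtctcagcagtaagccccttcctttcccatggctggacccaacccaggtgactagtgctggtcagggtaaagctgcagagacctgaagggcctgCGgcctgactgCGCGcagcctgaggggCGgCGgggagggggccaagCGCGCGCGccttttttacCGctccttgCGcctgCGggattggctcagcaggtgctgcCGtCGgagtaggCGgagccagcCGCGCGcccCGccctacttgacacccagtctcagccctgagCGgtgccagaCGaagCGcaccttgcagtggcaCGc

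The Gabra2 window is 70.0% G and C with 25 CG dinucleotides, and the Gabrq window is 67% with 23. The Gabrg1 window, which lies in the same cluster as that of Gabra2, is 38.3% G and C with 3 CG dinucleotides. Over all 32851 windows the medians were 52.7% and 7, and as many CG dinucleotides as in the windows of Gabra2, Gabrq and Gabrg1 were found in 18.4%, 21.5% and 76.7% of windows. On both strands, none of these 3 windows held TGACGTCA, the CRE (in 1.8% of all windows), TGANTCA, the AP-1 site (in 7.8%), or TGGAAA, the core bound by NFAT factors (in 21.4%), none of which contains another. Among the 11 windows annotated for the 7 members, TGGAAA occurred once in a Gabra3 window and once in a Gabrb1 window. These are counts of letters and carry no measurement of binding.

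Total counts ran from 3887298 in CnB1KO_S6 library 13 to 7903253 in WT_SD6 library 10. Levels of a gene across libraries are given as CPM (counts brought to a common total after TMM scaling), and levels of different genes are compared by FPKM, which also divides by length. Library 8 (WT_SD6) stood apart in tissue content, with the lowest noradrenergic score of all 19 libraries, 5.61 against 6.22 to 7.03 in the others, and the highest cerebellar granule cell score, 7.59 against 3.67 to 7.22. A score is the mean log2 CPM over a marker list, here 9 noradrenergic genes (Th, Dbh and others) and 8 cerebellar granule cell genes (Neurod1, Cbln1 and others, with the subunit gene Gabra6 left out). Library 13 also stood apart, with the highest pan-neuronal score, 8.36 against at most 8.09 in the others. Its oligodendrocyte score was the highest too, 7.64 against at most 7.38. All 9 noradrenergic markers were counted, and their summed level ran from 664 to 1680 CPM, so the defining markers of the labelled tissue were found in each library. In bulk tissue, fewer cells of a type and less RNA per cell cannot be told apart. The summed level of the cerebellar list was 264 to 1440 CPM in CnB1KO_SD6, 296 to 1280 in CnB1KO_S6, 340 to 2080 in WT_SD6 and 517 to 1690 in WT_S6, so the groups overlapped in the level of these genes of the adjoining cerebellum.

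By FPKM, which the authors deposited in a separate table for each group, 3 subunits stood highest. Gabrq, Gabra3 and Gabrb2 were at 33.7 ± 7.72, 33.0 ± 3.84 and 31.6 ± 4.08 FPKM (SD over 19 libraries), and these neighbours differed by less than their spread. Gabrb1 followed at 20 ± 2.10 FPKM, a step down from Gabrb2 larger than either spread. Gabra2, Gabrg1 and Gabra5 were at 16.3 ± 3.60, 15.3 ± 1.94 and 14.8 ± 2.04 FPKM, again closer to each other than their spread. The gap between Gabrb1 and Gabra2 was slightly larger than either spread, but smaller than the sum of their spreads.

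Gabra2 was higher in CnB1KO than in WT tissue averaged over sleep states, 1.46-fold. In CnB1KO_SD6 it was at 114, 126, 130, 120 and 127 CPM in libraries 16 to 20. In CnB1KO_S6 it was at 120, 143, 130, 86.6 and 77.4 CPM in libraries 11 to 15. In WT_SD6 it was at 84.1, 92.8, 72.5, 86.8 and 88.1 CPM in libraries 6 to 10, and in WT_S6 at 82.4, 76.8, 69.5 and 75.1 CPM in libraries 1 to 4. After deprivation all 5 CnB1KO libraries lay above all 5 WT libraries. After sleep 4 of 5 CnB1KO libraries lay above all 4 WT libraries, but the 5 values were split: libraries 11, 12 and 13 were at or above 120 CPM, whereas libraries 14 and 15 lay inside the range of the 9 WT libraries. Over both sleep states 8 of 10 CnB1KO libraries lay above all 9 WT libraries, which ended at 92.8 CPM. The group means were 123 ± 6.2, 112 ± 28.4, 84.9 ± 7.58 and 76.0 ± 5.31 CPM in CnB1KO_SD6, CnB1KO_S6, WT_SD6 and WT_S6 (SD, n = 5, 5, 5 and 4), and 19.6 ± 0.984, 18 ± 4.25, 14 ± 1.48 and 12.8 ± 1.35 on the FPKM scale. The counts behind them, 476 to 897 per library, put counting error at no more than 4.58% of a value.

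**Figure D1:**
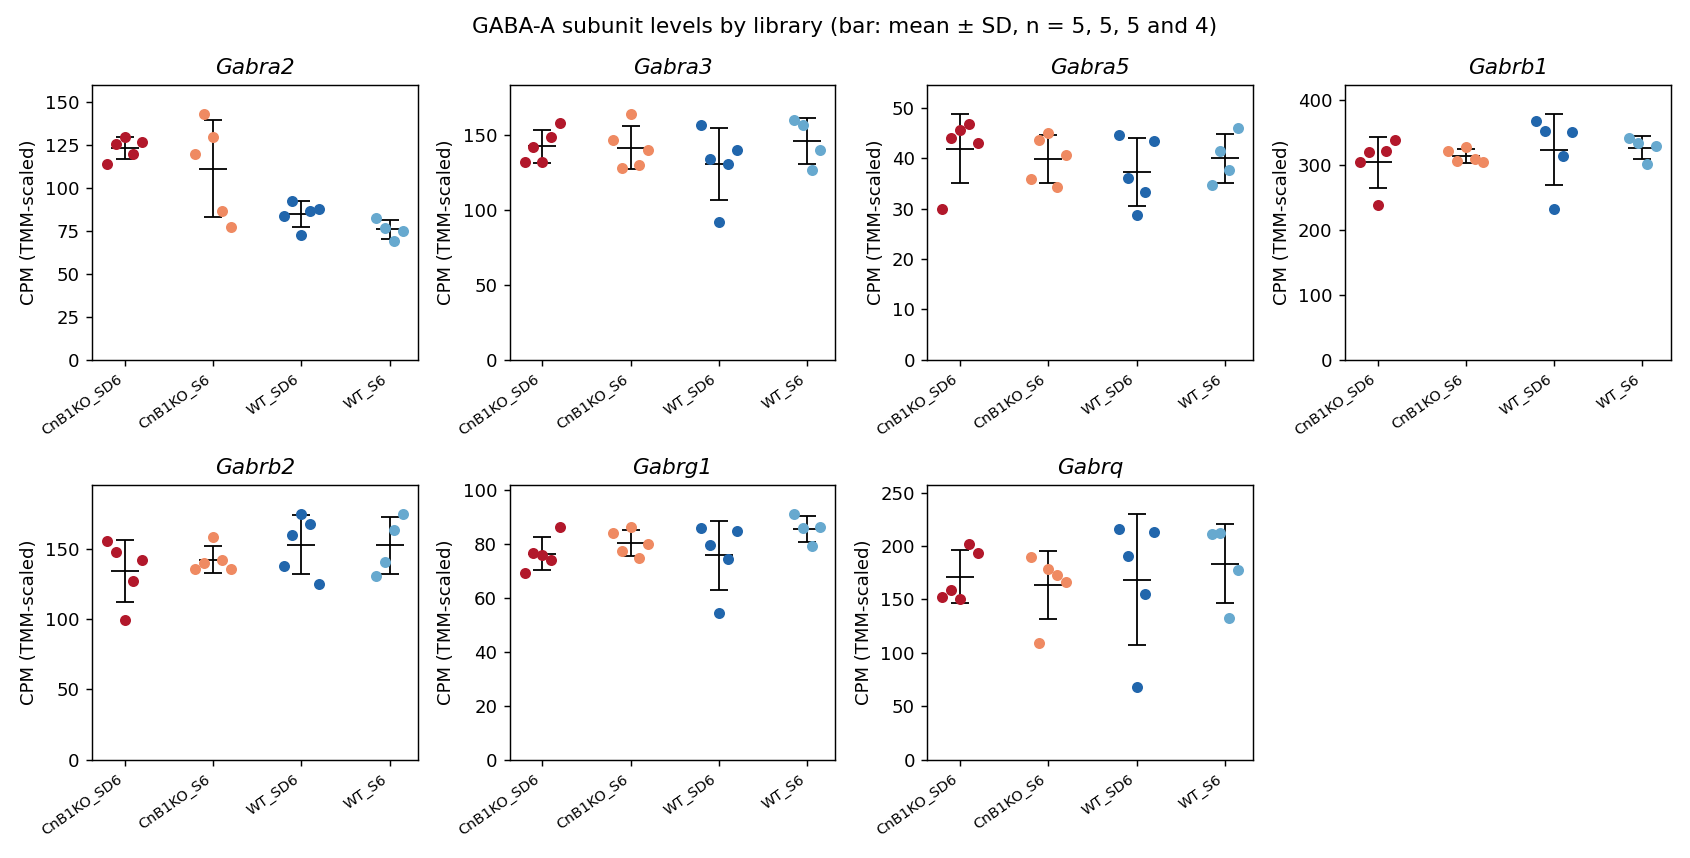
Levels of the 7 subunit genes in the 19 libraries, in TMM-scaled CPM on linear axes that start at 0. Points are libraries, bars are means ± SD for CnB1KO_SD6, CnB1KO_S6, WT_SD6 and WT_S6 (n = 5, 5, 5 and 4). In the Gabra2 panel 8 of the 10 CnB1KO points lie above 92.8 CPM, the highest WT value, while in the other panels the 4 groups overlap.

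Averaged over both sleep states, the difference of Gabra2 between CnB1KO and WT was 0.54 ± 0.09 on the log2 scale (1.46-fold; SE; edgeR quasi-likelihood test, Benjamini-Hochberg adjusted p = 0.00659 over 14443 genes). Gabra2 was the 1 of 7 members that passed at an adjusted p under 0.05, in a comparison in which 3.09% of all genes passed (1.88% higher and 1.21% lower). In each of the 2 genotype comparisons taken singly 0 of 7 members passed, and 1, Gabra2, had an unadjusted p under 0.05 with edgeR. Of all 14443 genes, 2197 had such a p after deprivation and 1456 after sleep, so that 1 of 7 lies near the background. The Gabra2 differences were of the same size as the average. They were 0.54 ± 0.12 after deprivation (adjusted p = 0.0945 by edgeR; 0.132% of genes passed) and 0.55 ± 0.13 after sleep (adjusted p = 0.20 by edgeR; 0.0485% of genes passed). Their difference, the interaction, was -0.01 ± 0.18 (95% interval -0.40 to 0.38; edgeR, adjusted p = 1.0), where 0% of genes passed and 287 had an unadjusted p under 0.05. After deprivation Gabra2 passed with DESeq2 (adjusted p = 0.0175) and when the fit held the 10 compared libraries alone (adjusted p = 0.0129, edgeR). It also passed after deprivation without CnB1KO_S6 library 15 or CnB1KO_SD6 library 16 (adjusted p = 0.042 and 0.0465, edgeR) and after sleep without CnB1KO_S6 library 15 (adjusted p = 0.0496, edgeR). A separation of all CnB1KO from all WT libraries in the direction of Gabra2 was found for 1.11% of genes after deprivation.

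The averaged call was kept when any 1 of the 19 libraries was left out, with differences of 0.49 to 0.60 (adjusted p 0.000857 to 0.0209, edgeR). On the log2(FPKM + 0.1) scale the difference was 0.47 ± 0.09 (limma, adjusted p = 0.0378). The call was lost with the endothelial or the oligodendrocyte marker score as a covariate (edgeR, adjusted p = 0.179 and 0.178), although the difference itself was 0.53 and 0.47. Of 5 endothelial markers 4 were higher in CnB1KO than in WT averaged over sleep states (Cldn5, 0.36, adjusted p = 0.0126; Flt1, Kdr and Pecam1, edgeR). The endothelial score was 5.89 ± 0.19 in CnB1KO_SD6, 5.93 ± 0.15 in CnB1KO_S6, 5.60 ± 0.21 in WT_SD6 and 5.53 ± 0.15 in WT_S6, and the summed level of the list was 332 to 439, 351 to 440, 252 to 351 and 265 to 321 CPM. Gabra2 was at the WT level in CnB1KO_S6 libraries 14 and 15. Their endothelial scores were 5.92 and 5.99, above those of all 9 WT libraries. Libraries 11, 13, 16 and 20 had Gabra2 above all WT libraries and endothelial scores of 5.81, 5.79, 5.72 and 5.72. These scores lay inside the WT range, which ended at 5.83. Library 19, with Gabra2 above all WT libraries, was also at 5.83. In libraries 12, 17 and 18 Gabra2 and the endothelial score were both above the WT range. Whether Gabra2 and this score go together among the CnB1KO libraries was not tested. Of 10 oligodendrocyte markers 2 were higher in CnB1KO (Ermn, 0.32, adjusted p = 0.0229, and Mag, 0.27, adjusted p = 0.0444, edgeR), with summed levels of 1860 to 2280, 1810 to 2840, 1720 to 1930 and 1860 to 2090 CPM in CnB1KO_SD6, CnB1KO_S6, WT_SD6 and WT_S6. Of 6 microglia markers C1qa was higher in CnB1KO (0.18, adjusted p = 0.0392, edgeR). No noradrenergic, pan-neuronal or astrocyte marker passed in this comparison. With Gabra6 counted in, all 9 cerebellar granule cell markers had negative genotype differences averaged over sleep states, from -1.17 to -0.26 (median -0.81, against 0.01 over all genes), and 0 of the 9 passed (edgeR). The 5 Purkinje cell markers had a median of -0.33 (range -0.52 to 0.18), and 0 passed. The part of these cell types in the Gabra2 difference was not tested beyond the covariates.

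Ppp3r1, the gene targeted in CnB1KO mice, was at 133 ± 6.73 CPM in CnB1KO_SD6, 129 ± 13.2 in CnB1KO_S6, 152 ± 10.9 in WT_SD6 and 161 ± 4.08 in WT_S6. After sleep it was lower in each of the 5 CnB1KO libraries than in any of the 4 WT libraries, and after deprivation in 3 of 5. Its averaged difference was -0.26 ± 0.04 (edgeR, adjusted p = 0.00758), in the direction of the genotype labels. Libraries 14 and 15 had the lowest Ppp3r1 of all 19 libraries, 121 and 120 CPM, close to 123, 125 and 127 CPM in libraries 17, 12 and 11. Whether the levels of Gabra2 and Ppp3r1 go together among the CnB1KO libraries was not tested. Library 13, the shallowest, had the highest Ppp3r1 of the CnB1KO libraries, 152 CPM, and 130 CPM of Gabra2. Ppp3r1 shares 462 exon bases (14.3%) with Wdr92, whose reads there cannot be assigned to one gene with certainty.

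**Figure D2:**
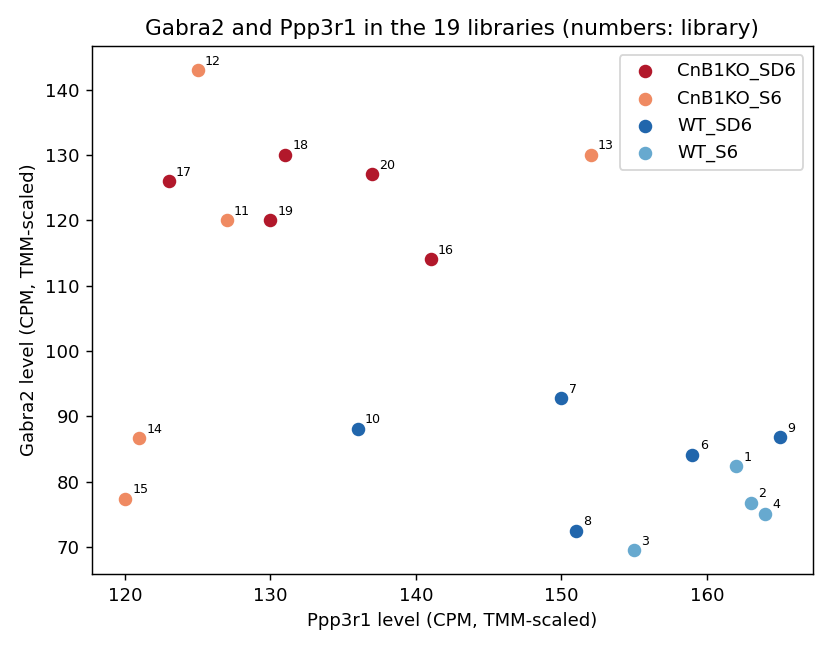
Gabra2 level against Ppp3r1 level in each of the 19 libraries, both in TMM-scaled CPM on linear axes that do not start at 0, with the library number beside each point. Libraries 14 and 15 (CnB1KO_S6) combine the lowest Ppp3r1, 121 and 120 CPM, with Gabra2 at 86.6 and 77.4 CPM, inside the WT range.

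Of the other alpha subunits none passed. Gabra3 encodes alpha-3, an alpha subunit typical of monoaminergic neurons. It was at 132, 142, 132, 149 and 158 CPM in CnB1KO_SD6 libraries 16 to 20 and at 147, 128, 164, 130 and 140 CPM in CnB1KO_S6 libraries 11 to 15. It was at 157, 134, 92.2, 131 and 140 CPM in WT_SD6 libraries 6 to 10 and at 160, 157, 127 and 140 CPM in WT_S6 libraries 1 to 4. The groups overlapped throughout, with library 8 the lowest, and the averaged genotype difference was 0.04 ± 0.08 (95% interval -0.13 to 0.21; edgeR, adjusted p = 0.795). Gabra5 encodes alpha-5, a subunit of receptors that lie largely outside synapses. Its level was 41.9 ± 6.83 CPM in CnB1KO_SD6, 39.9 ± 4.70 in CnB1KO_S6, 37.2 ± 6.71 in WT_SD6 and 39.9 ± 4.89 in WT_S6, with overlapping groups and an averaged genotype difference of 0.08 ± 0.09 (95% interval -0.12 to 0.28; edgeR, adjusted p = 0.644). The upper bounds of both intervals lay below the lower bound for Gabra2, 0.35, though differences between genes were not tested.

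The beta subunits, which with the alpha subunits form the GABA site, did not pass either. Gabrb1 was at 304 ± 39.3, 314 ± 10.1, 323 ± 54.3 and 327 ± 18.1 CPM in CnB1KO_SD6, CnB1KO_S6, WT_SD6 and WT_S6, and 2 libraries stood lowest, library 8 of WT_SD6 at 233 CPM and library 18 of CnB1KO_SD6 at 238 CPM. Gabrb2 was at 156, 148, 99.6, 127 and 142 CPM in CnB1KO_SD6 libraries 16 to 20 and at 136, 140, 159, 142 and 136 CPM in CnB1KO_S6 libraries 11 to 15. It was at 138, 160, 175, 168 and 125 CPM in WT_SD6 libraries 6 to 10 and at 131, 141, 164 and 175 CPM in WT_S6 libraries 1 to 4. The 4 groups overlapped, with the lowest value in library 18. The averaged genotype differences were -0.07 ± 0.07 for Gabrb1 (edgeR, adjusted p = 0.564) and -0.14 ± 0.08 for Gabrb2 (95% interval -0.32 to 0.03; edgeR, adjusted p = 0.292).

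Gabrg1 encodes gamma-1, a gamma subunit of the receptor, and lies next to Gabra2. It was at 76.2 ± 6.2, 80.3 ± 4.71, 75.7 ± 12.7 and 85.4 ± 4.92 CPM in CnB1KO_SD6, CnB1KO_S6, WT_SD6 and WT_S6, and its averaged genotype difference was -0.04 ± 0.07 (95% interval -0.19 to 0.10; edgeR, adjusted p = 0.727). Gabrq, the theta subunit, had a 3.19-fold ratio between its highest and lowest CPM, against 2.06-fold for Gabra2 and 1.58-fold for Gabrb1, with library 8 at the low end, while the coefficient of variation over the 19 libraries was 22.4% for Gabrq and 24.2% for Gabra2. It was at 152, 159, 150, 202 and 194 CPM in CnB1KO_SD6 libraries 16 to 20 and at 190, 109, 179, 173 and 166 CPM in CnB1KO_S6 libraries 11 to 15. It was at 216, 191, 67.7, 155 and 213 CPM in WT_SD6 libraries 6 to 10 and at 211, 212, 133 and 178 CPM in WT_S6 libraries 1 to 4. Libraries 8 and 12 were lowest, the same 2 that had the lowest noradrenergic scores, and the groups overlapped. The averaged genotype difference of Gabrq was -0.07 ± 0.17 (95% interval -0.42 to 0.28; edgeR, adjusted p = 0.819), the widest interval among the members.

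Sleep deprivation moved none of the 7 subunits past the threshold, in either genotype or averaged over them. The averaged comparison passed 4.69% of all genes, deprivation in CnB1KO 0.692% and deprivation in WT 1.14%. No member had an unadjusted p under 0.05 in any of them with edgeR. Of all 14443 genes, 2482, 1400 and 1673 had such a p in the same order. DESeq2 also called no member in these 3 comparisons. Gabra2 had the largest positive averaged difference, 0.16 ± 0.09 (95% interval -0.04 to 0.35; edgeR, adjusted p = 0.424). In CnB1KO, the deprived and slept libraries overlapped at 114 to 130 CPM and 77.4 to 143 CPM, and the difference was 0.15 ± 0.12 (edgeR, adjusted p = 0.842). In WT, 4 of 5 deprived libraries lay above all 4 slept ones, the exception being library 8, and the difference was 0.16 ± 0.13 (edgeR, adjusted p = 0.749). Gabrg1 had the largest averaged difference in the other direction, -0.12 ± 0.07 (95% interval -0.27 to 0.02; edgeR, adjusted p = 0.375), and Gabra3, Gabra5, Gabrb1, Gabrb2 and Gabrq lay between -0.07 and -0.01 (adjusted p 0.741 to 0.988). The median over the 7 members was -0.03, against 0.00 over all genes. Marker genes of other cells did pass in the averaged deprivation comparison, among them the oligodendrocyte genes Opalin (-1.08), Aspa and Mog, the microglial receptor Cx3cr1 (-0.25) and the astrocyte connexin Gjb6 (0.42; adjusted p = 6.02e-05, edgeR).

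**Figure D3:**
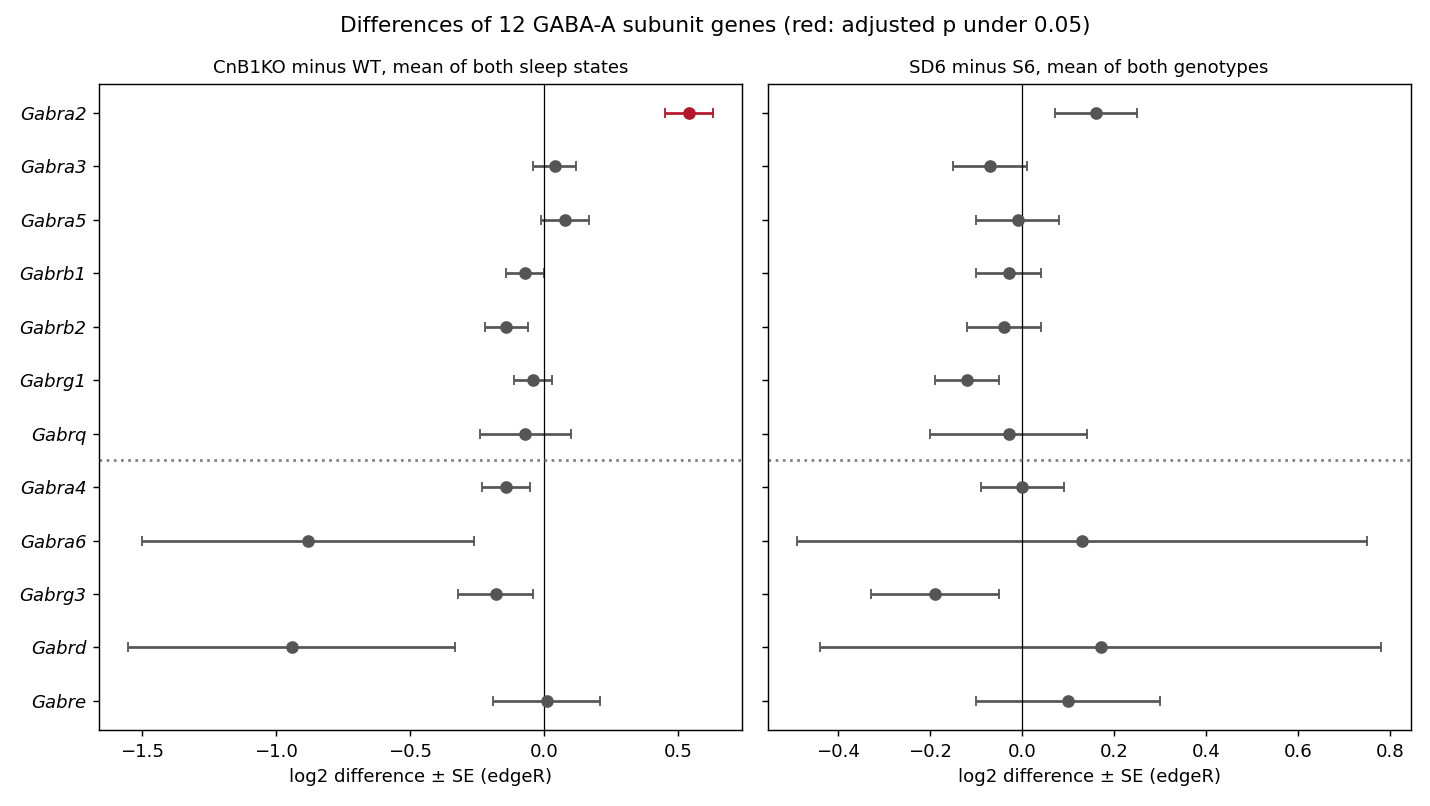
Log2 differences ± SE from edgeR for the 7 members (above the dotted line) and 5 further counted subunits, for CnB1KO minus WT averaged over sleep states (left) and SD6 minus S6 averaged over genotypes (right); the horizontal scales differ. Gabra2, at 0.54 on the left, is the only gene marked as passing, and Gabra6 and Gabrd have the widest errors.

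Of 9 further subunit genes of the receptor family, 5 were counted and 0 passed in either averaged comparison with edgeR, where 4.69% (deprivation) and 3.09% (genotype) of genes passed, and their genotype differences ran from -0.94 to 0.01 (median -0.18, against 0.01 over all genes). The largest negative values belonged to Gabra6 and Gabrd, subunits of cerebellar granule cells, whose levels spread over 0.597 to 132 and 1.99 to 63.6 CPM within CnB1KO_SD6 alone and had errors of 0.62 and 0.61. Gabre, the epsilon subunit and X-linked neighbour of Gabrq and Gabra3, had a genotype difference of 0.01 ± 0.20 and was lowest in library 8, at 29.3 CPM. Gabrp, Gabrr1, Gabrr2 and Gabrr3 had no count row and averaged 0, 0.158, 1.22 and 0.00606 FPKM.

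Of the other pathway genes, 1 passed in an averaged comparison. Of 18 genes for assembly, trafficking and clustering of GABA-A receptors, 1 passed for genotype averaged over sleep states and 0 for deprivation (edgeR), where 3.09% and 4.69% of all genes passed, so that the count lies near the background. The 1 was Trak2, which encodes an adaptor for transport along microtubules, at 219 ± 6.55 CPM in CnB1KO_SD6, 220 ± 12.9 in CnB1KO_S6, 199 ± 10.4 in WT_SD6 and 201 ± 11.8 in WT_S6. Its difference was 0.13 ± 0.04 (edgeR, adjusted p = 0.0498), and it kept its call in 8 of 32 alternative analyses, among them 3 of 19 that left out a library. None of 7 genes for GABA synthesis, packaging, uptake and breakdown passed in either averaged comparison, with genotype differences of 0.01 to 0.14. Abat, whose enzyme breaks GABA down, was at 371 ± 35.2, 392 ± 54.7, 351 ± 20.2 and 358 ± 9.66 CPM in CnB1KO_SD6, CnB1KO_S6, WT_SD6 and WT_S6, and the GABA transporter gene Slc6a11, expressed in astrocytes, was at 375 ± 38.7, 394 ± 63.7, 337 ± 25.4 and 363 ± 26.5 CPM in the same order. None of 6 GABA-B genes passed, with Gabbr1 and Gabbr2, the receptor's obligate pair, at 0.04 and 0.01 for genotype. None of 10 chloride transport genes passed, among them Slc12a5, the neuronal chloride exporter, at 0.03, and the kinase gene Wnk1 at 0.10. Of 6 counted glycine receptor and transporter genes none passed, although Slc6a5, the transporter of glycinergic neurons, had a difference of 0.63 ± 0.31 and Glrb one of 0.14 ± 0.05 (edgeR, adjusted p = 0.226 and 0.129). In these 5 pathway lists 0 genes passed for deprivation.

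The members differed in how they followed the tissue content of the libraries. Over the 19 libraries, log2 CPM of Gabrq rose with the noradrenergic score (Pearson r = 0.88, permutation p = 2e-05, adjusted 0.00014; Spearman rho = 0.82, permutation p = 4e-05, adjusted 0.00028). So did that of Gabra3 (r = 0.86, permutation p = 1e-05, the smallest the permutations can give, adjusted 0.00014; rho = 0.83, permutation p = 1e-05, adjusted 0.00014). Without libraries 8 and 12, those farthest from the median score, r was 0.73 for Gabrq and 0.70 for Gabra3. Within CnB1KO (n = 10) r was 0.95 for Gabrq and 0.74 for Gabra3, and within WT (n = 9) 0.93 and 0.90. For Gabra2 the relation did not pass (r = 0.29, permutation p = 0.23, adjusted 0.23; rho = 0.22, permutation p = 0.37, adjusted 0.37), with r of -0.25 within CnB1KO, 0.56 within WT and 0.35 without the 2 libraries. Gabrg1 had r = 0.70 (adjusted permutation p = 0.0081) and rho = 0.46 (adjusted permutation p = 0.061). Gabrb1 had r = 0.58 (adjusted permutation p = 0.022) and rho = 0.59 (adjusted permutation p = 0.016). Without libraries 8 and 12 the pooled r fell to 0.37 for Gabrg1 and 0.26 for Gabrb1, and rho was not recomputed without them. Within CnB1KO r was 0.43 for Gabrg1 and 0.25 for Gabrb1, and within WT 0.85 and 0.89. Both values of each pair come from the same library and share its depth and scaling, and 14 relations were computed.

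Gabrb2 followed the cerebellar markers in WT libraries. Its log2 CPM rose with the cerebellar granule cell score taken without Gabra6 (r = 0.55, permutation p = 0.013, adjusted 0.022; rho = 0.68, permutation p = 0.0019, adjusted 0.0066). By genotype, r was 0.06 within CnB1KO (n = 10) and 0.96 within WT (n = 9), and it was 0.55 without libraries 20 and 8. Within CnB1KO, Gabrb2 was highest in library 13, with 7.31 log2 CPM at a score of 4.27. It was lowest in library 18, with 6.64 at a score of 5.59. The r within CnB1KO without libraries 13 and 18 was not computed, and the difference between genotypes was not tested. Against the noradrenergic score Gabrb2 had r = -0.61 (adjusted permutation p = 0.017; rho = -0.66, adjusted permutation p = 0.0071), -0.11 within CnB1KO, -0.87 within WT and -0.62 without libraries 8 and 12. Gabra3, Gabra5, Gabrg1 and Gabrq fell as the cerebellar score rose. For Gabra3 and Gabra5 r was -0.68 and -0.67 (adjusted permutation p = 0.0023 and 0.0064; rho = -0.77 and -0.58, adjusted permutation p = 0.00079 and 0.02). Their r was -0.80 and -0.73 within CnB1KO, -0.66 and -0.56 within WT, and -0.63 and -0.62 without libraries 20 and 8. For Gabrg1 and Gabrq r was -0.53 each (adjusted permutation p = 0.022 each; rho = -0.53 and -0.61, adjusted permutation p = 0.032 and 0.015), with -0.66 and -0.41 within CnB1KO, -0.63 and -0.71 within WT, and -0.37 and -0.40 without the 2 libraries. Gabra2 had r = -0.45 with the same score (permutation p = 0.05, adjusted 0.059; rho = -0.44, permutation p = 0.062, adjusted 0.073), -0.26 within CnB1KO, -0.43 within WT and -0.31 without the 2 libraries. With the noradrenergic or the cerebellar score as a covariate, Gabra2 still passed for genotype averaged over sleep states (0.53 and 0.50; edgeR, adjusted p = 0.0094 and 0.0154).

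**Figure D4:**
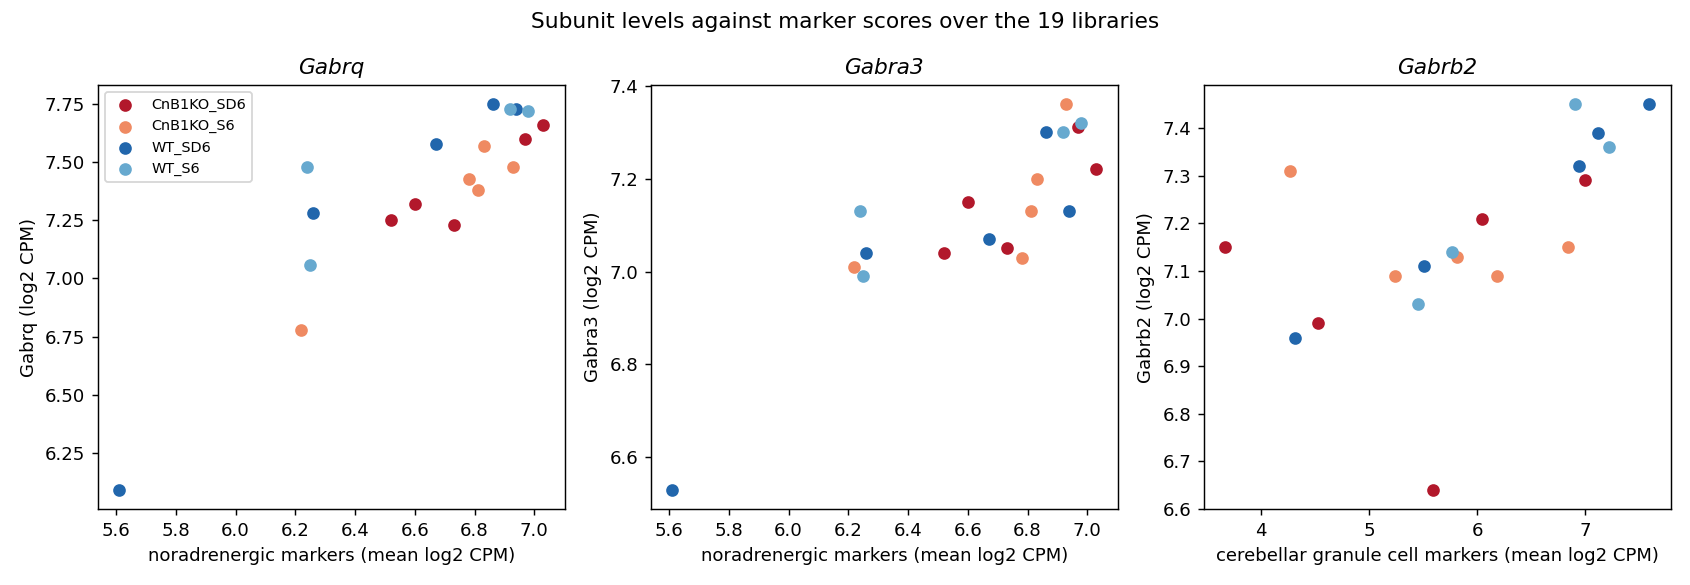
Log2 CPM of Gabrq and Gabra3 against the noradrenergic score, and of Gabrb2 against the cerebellar granule cell score (mean log2 CPM of the markers), with 1 point per library and the 4 groups in colour; axes do not start at 0. Gabrq and Gabra3 climb with the score, and WT_SD6 library 8 lies lowest in both. For Gabrb2 the WT points climb (r = 0.96), and r over all CnB1KO points, libraries 13 and 18 included, is 0.06.

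The 5 genes whose profile over the 19 libraries was most like that of Gabra2 were sought among 13475 genes with a mean of at least 5 CPM. By Pearson r of log2 CPM they were Aldh2 (0.85), Ppp1r14b (0.85), Rabep1 (0.82), Khdrbs3 (0.81) and Pgs1 (0.81), as a description of these 19 libraries, which share the genotype contrast. Of the 5, Khdrbs3, which encodes an RNA-binding protein, and Pgs1, which encodes an enzyme of cardiolipin synthesis, passed for genotype averaged over sleep states (0.21 and 0.17, edgeR, adjusted p = 0.0309 and 0.0228). In that comparison 3.09% of all genes passed. Their differences were smaller than that of Gabra2. Because the 5 were picked by likeness to Gabra2 over these libraries, such calls are not independent of its genotype difference. In CnB1KO_S6 libraries 14 and 15, Aldh2, an aldehyde dehydrogenase, was at 98.7 and 97.6 CPM, against 103, 109 and 111 in libraries 11 to 13. This is the split seen for Gabra2 on a smaller scale, in a gene picked by its likeness to Gabra2 over these same libraries. Ppp1r14b, Rabep1 and Pgs1 were also lower in libraries 14 and 15, Rabep1 narrowly (199 CPM in library 15, 201 in library 11). Khdrbs3 did not show the split, with 57.5 CPM in library 15 and 55.6 in library 11. Aldh2 also lies on chromosome 5, from 121566027 to 121593824, outside the subunit cluster, whereas Ppp1r14b, Rabep1, Khdrbs3 and Pgs1 lie on chromosomes 19, 11, 15 and 11.

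The genes around Gabra2 were then compared, a test chosen after the Gabra2 values were seen. Within 2 Mb on either side, 62 other genes are annotated on GRCm38 and 14 were counted. Their differences between CnB1KO and WT averaged over sleep states had a median of -0.03, and 1 of the 14 passed, where 3.09% of all genes passed. That gene was Guf1, which encodes a mitochondrial elongation factor and starts at -1538.9 kb from the start of Gabra2, towards lower coordinates, with a difference of -0.23 ± 0.04 (edgeR, adjusted p = 0.0135). Corin, at 5.06 CPM, had the widest difference, -1.25 ± 0.47 (edgeR, adjusted p = 0.121). The nearest counted genes, Gabrg1, Gabrb1 and Gabra4, had differences of -0.04, -0.07 and -0.14, and none of these 3 subunit genes of the same cluster passed.

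**Figure D5:**
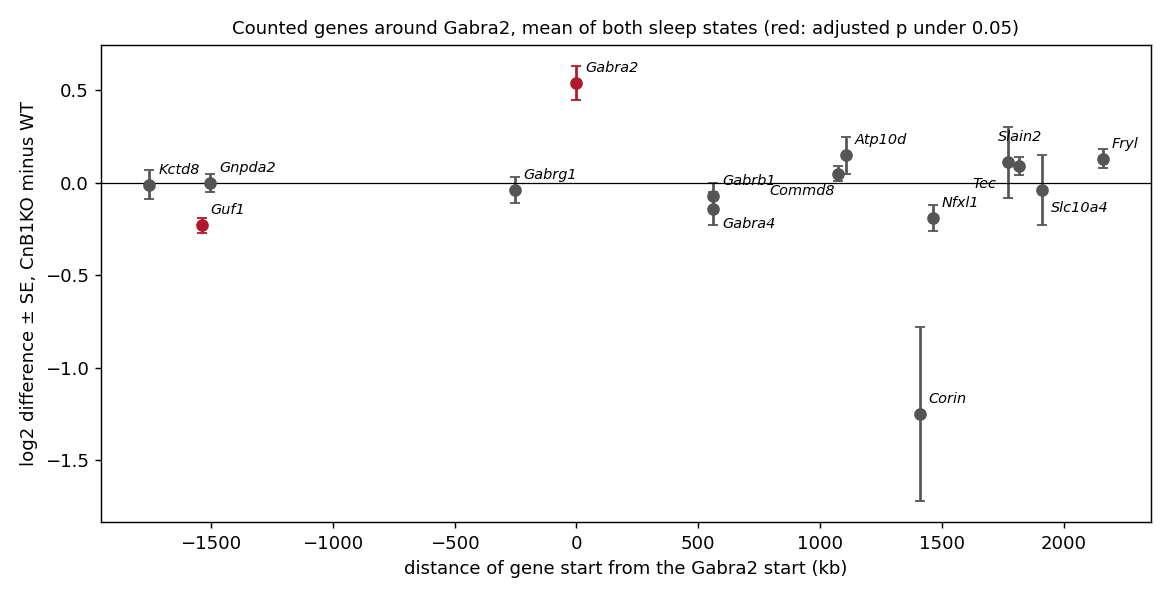
Log2 differences ± SE (edgeR, CnB1KO minus WT, averaged over sleep states) of Gabra2 and the 14 counted genes within 2 Mb of it, against the distance of each gene's start from that of Gabra2 in kb. Gabra2 stands at 0.54; Guf1, at -0.23, is the other gene marked as passing.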

How the data were processed

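Per the labels' protocols, poly(A) RNA of dissected LC tissue was made into libraries without strand information. The authors deposited raw counts per gene symbol for the 19 libraries, and FPKM per library in a table for each group. Per the submitters' processing notes, the tools were StringTie 2.2.1, HTSeq 2.0.4, Picard 2.18.29, Trim Galore 0.6.10, SAMtools 1.6 and FastQC 0.12.1, with no role named, and the build was GRCm38; how reads were aligned, which annotation was used and whether duplicates were removed is not stated in them. The 19 TPM columns of the same tables were not used, because symbols repeat on several lines. Count columns carry a group and a number that is not the labels' replicate number, so libraries were mapped to groups only.

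After TMM scaling, the counts went into a single model of the 4 groups with edgeR 4.0.16 (R 4.3.3), with the 2-sided quasi-likelihood F test, 15 residual degrees of freedom and a common dispersion of 0.0121. None of the 14443 genes, which had at least 381 counts summed over libraries, was removed by filterByExpr. The threshold was an adjusted p under 0.05 (Benjamini-Hochberg, over all genes). The 7 comparisons were the 2 deprivation and the 2 genotype differences, their averages and the interaction. FPKM were tested with limma 3.58.1 on log2(FPKM + 0.1), for 25719 symbols with a single line per table and a mean of at least 0.1. DESeq2 1.42.0, other filters and scalings, marker scores as covariates and the omission of each library were alternatives. The edgeR and limma fits were tested on simulated data. Correlations used 100000 permutations. Exon positions came from GENCODE M21 (GRCm38).

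The members, the gene lists and the tests were chosen with earlier results of these data known. All 7 members were named, as were Ppp3r1, up to 4 passing genes per pathway list (or the 2 of highest CPM where none passed), at most 2 examples or the passing genes of each marker list, and the 5 genes most like Gabra2. Some genes of the pathway lists are not reported here and were left out of the lists' counts. The precision of a value is set by 165 to 2837 counts per member and library, and p-values of the group tests weigh a difference against the spread between libraries.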

Additional observations from a re-analysis of the deposited data

Results flagged for a closer look

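Over 28 sets of values (7 members in 4 groups), 2 held a library far from the others of its group, where chance gives about 1 in 20. Gabra5 in CnB1KO_SD6 library 16 was at 29.9 CPM, and its gap to the next library was 0.78 of the group's range. Gabrb2 in CnB1KO_S6 library 13, the shallowest library, was at 159 CPM, with a gap of 0.742 of the range.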

How the results depend on the processing

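No paired analysis was possible because the count columns carry no replicate number of the labels. The number of members passing kept its value in 220 of 228 alternative analyses. For genotype averaged over sleep states it was 0 in place of 1 with limma on unfiltered FPKM (Gabra2, adjusted p = 0.0558) and with the oligodendrocyte or the endothelial score as a covariate, the endothelial one added after seeing the data; Gabra2 passed in 29 of 32 alternatives, with differences of 0.45 to 0.60 and adjusted p of 1.59e-05 to 0.179. For genotype after deprivation it was 1 in place of 0 with the compared libraries alone and with DESeq2. When single libraries were left out it was 0 to 1 for genotype after deprivation (1 without CnB1KO_S6 library 15 or CnB1KO_SD6 library 16; Gabra2, edgeR adjusted p = 0.042 and 0.0465) and 0 to 1 for genotype after sleep (1 without CnB1KO_S6 library 15, adjusted p = 0.0496, difference 0.66). The causes were not tested. Ppp3r1 lost its call with the endothelial score (-0.15, adjusted p = 0.212, edgeR).

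Differences that changed sign were all short of the threshold. The Gabra2 interaction was 0.03 in each of 3 FPKM fits, 0.00 without WT_SD6 library 8 and CnB1KO_S6 library 13 (an omission added after seeing the data), and -0.12 to 0.10 without single libraries. For deprivation averaged over genotypes, the oligodendrocyte score gave 0.01 for Gabra3 and 0.16 for Gabra5. Omission of libraries 8 and 13 gave 0.00 for Gabra3, 0.05 for Gabra5, 0.02 for Gabrb1 and 0.09 for Gabrq. Without single libraries the ranges were -0.05 to 0.04 for Gabra5, -0.05 to 0.02 for Gabrb1, -0.07 to 0.00 for Gabrb2 and -0.09 to 0.07 for Gabrq. For genotype averaged over sleep states, Gabra3 was 0.00 with log2 library total, -0.04 with the noradrenergic, -0.05 with the cerebellar and -0.03 with the oligodendrocyte score, -0.04 without libraries 8 and 13, and -0.01 to 0.08 without single libraries. Gabra5 was -0.02 with the cerebellar and -0.07 with the oligodendrocyte score. The endothelial score gave 0.05 for Gabrb1, 0.05 for Gabrg1 and 0.28 for Gabrq. Library 13 has the fewest counts. The counting error at the lowest count was 2.89% to 7.78% over the members, below the coefficients of variation of 10.5% to 24.2%.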
